A study of Homo sapiens with 6 samples.

Results

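The HMG proteins are 10 chromatin proteins in 3 subfamilies, HMGB (HMGB1, HMGB2 and HMGB3), HMGA (HMGA1 and HMGA2) and HMGN (HMGN1 to HMGN5). All 10 genes were found by Ensembl ID among the 58302 genes of the count tables, and all 10 received an adjusted p in the fit described below, as did 18878 genes in all. Expression was measured by RNA sequencing of poly(A) RNA from A375, a human melanoma cell line, in 3 libraries from cells that stably overexpressed HMGB2 (HMGB2OE) and 3 from cells that stably carried an empty vector (EV). The lines were made with lentivirus and selected with a drug. The study's reporting form calls the replicates technical, so p-values measure the spread between pellets of 1 line per group. The promoter behind the overexpressed gene in these lines was not given in the sources used here.

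Proteins of the HMG family are small, abundant and mobile components of chromatin. HMGB proteins carry HMG boxes that bind the minor groove and bend DNA, HMGA proteins bind AT-rich DNA through AT hooks and are typical of embryonic and tumour cells, and HMGN proteins bind the nucleosome core itself. All 3 kinds compete with linker histone H1 for chromatin. HMGB1 outside the cell also acts as a danger signal for immune receptors.

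Libraries held between 45925053 and 56755212 reads assigned to genes. Reads that mapped to several places, and so to no gene in these counts, were 2.58% to 4.89% of all reads in 5 libraries and 10.6% in HMGB2OE replicate 3. The melanoma label was checked with marker genes. MITF had a mean normalized count (reads divided by the size factor of the library) of 1442 with EV and 1627 with HMGB2OE. S100B had 3443 and 3714, whereas MLANA, TYR and DCT had means under 10. S100A1 had 132 and 154, PMEL 54.7 and 58.6, TYRP1 13.3 and 14.3, and GPR143 9.75 and 12.6. SOX10 was listed at 0 in the column of counts used here, which drops reads where genes on opposite strands overlap, and had 28863 to 56464 reads per library in the sum of the stranded columns. The blood marker PTPRC was at 0 and the other 4 blood markers had means under 10. The 10 melanocytic markers summed to between 4996 and 5248 normalized counts in EV libraries and between 5456 and 5821 in HMGB2OE libraries, and none of the 7 with an adjusted p was called, which here means a DESeq2 adjusted p under 0.05. That sum counts SOX10 at 0. In the stranded sum SOX10 alone had 44789 ± 11068 normalized counts (SD, n = 3) with EV and 38080 ± 4881 with HMGB2OE, with overlap. The 6 markers of dedifferentiated melanoma summed to between 38965 and 50037 in EV libraries and between 31658 and 35364 in HMGB2OE libraries, with AXL (log2 fold change -0.69, DESeq2 adjusted p = 8.6e-05) and NGFR (-1.06, 2.99e-07) lower. AXL made up most of that sum, with 29805 and 18458 in the mean. SOX9 was above 0 at 0.42 (0.199), and 3 of the 6 markers were above 0. Of 4 endothelial markers 1, KDR, was lower (-1.11, 0.00115). The 7 epithelial markers were not absent and summed to between 17082 and 19686 in EV libraries and between 17487 and 20275 in HMGB2OE libraries. KRT18 made up most of that sum, with 12388 and 11794 in the mean. The 6 fibroblast markers summed to between 3068 and 5224 in EV libraries and between 4606 and 6382 in HMGB2OE libraries. None of these epithelial or fibroblast markers was called. The part of these differences in the values of the HMG genes was not tested.

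With HMGB2 overexpressed, transcripts of HMGB2, HMGB1 and HMGA2 rose and no HMG transcript fell past the threshold. HMGB2 was 2.07-fold higher, and HMGB1 and HMGA2 were 1.27-fold and 1.28-fold higher. The threshold was an adjusted p under 0.05 in DESeq2 over all genes tested. It was passed in the higher direction by 2.29% of the 18878 genes tested and in the lower direction by 2.64%. Among the 9 members other than HMGB2, 8 had a log2 fold change above 0, with a median of 0.20. Over all genes tested 50.4% were above 0, with a median of 0.00. The 3 HMGB2OE libraries lay above the 3 EV libraries for 4 members, HMGB1, HMGB2, HMGA2 and HMGN2, and for 11.1% of all genes tested. HMGB2 is the gene in the vector, so its call and its lack of overlap were set by the design. No member had all 3 HMGB2OE libraries below the EV libraries, against 10.7% of all genes tested. With edgeR, HMGB2 was the single member called, against 1.28% of genes higher and 1.52% lower. As these are bulk libraries, a change in the number of expressing cells and a change in RNA per cell cannot be told apart.

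**Figure D1:**
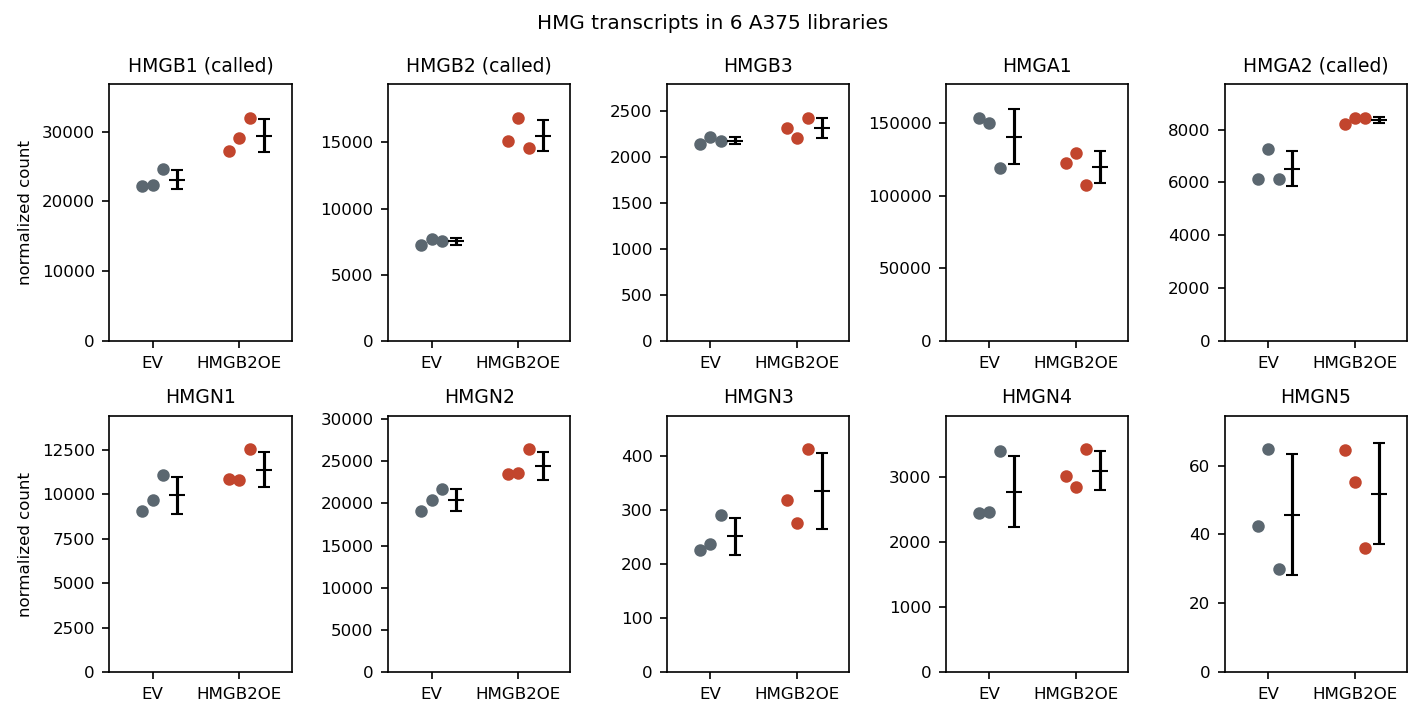
Normalized counts of the 10 HMG genes in each library, with 1 panel per gene and each vertical axis starting at 0. Points are libraries in the order of replicates 1 to 3, and the black mark and bar give the mean and SD of 3 libraries. The groups are apart for HMGB1, HMGB2, HMGA2 and HMGN2 and overlap for the other 6 genes.

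HMGB2 (ENSG00000164104, GRCh38 chromosome 4, 173331376 to 173334432, minus strand), which bends DNA and is the gene carried by the overexpression vector, checked the labels. Its normalized counts were 7250, 7729 and 7562 in EV replicates 1 to 3 and 15095, 16848 and 14609 in HMGB2OE replicates 1 to 3. Every HMGB2OE library lay above every EV library. The mean was 7514 ± 243 (SD, n = 3) with EV and 15517 ± 1177 with HMGB2OE, and the log2 change was 1.05 (SE 0.10, DESeq2 adjusted p = 4.41e-22, 95% interval 1.80-fold to 2.37-fold). Reads from the vector and from the cells' own HMGB2 gene cannot be told apart in gene counts. Only 0.718% of the 50-base words of the HMGB2 transcript (the canonical one in GENCODE) occur elsewhere in the genome, so few of its reads could be lost to copies of the gene.

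HMGB1 (ENSG00000189403, chromosome 13, 30456704 to 30617597, minus strand), the most widely expressed HMGB protein and the close relative of HMGB2, rose together with it. Its normalized counts were 22234, 22380 and 24687 in EV replicates 1 to 3 and 27229, 29041 and 31961 in HMGB2OE replicates 1 to 3. The groups did not overlap. Each HMGB2OE library was higher than the EV library of the same number by 0.29, 0.38 and 0.37 on the log2 scale. The labels do not say whether replicate numbers pair the libraries. The log2 change was 0.35 (SE 0.11, DESeq2 adjusted p = 0.0285). The call did not hold with edgeR (adjusted p = 0.095) and was lost when any 1 library other than EV replicate 3 was left out, with adjusted p between 0.119 and 0.381. Without EV replicate 3 the adjusted p was 0.000225.

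Whether reads of overexpressed HMGB2 could be counted for HMGB1 was examined in the coding sequences. The longest run of bases that the coding sequences of HMGB1 and HMGB2 share without a mismatch was 29 bases, starting at position 460 of both, counted from the first base of the start codon. It is shown because it is the longest stretch over which a read cannot be assigned to one of these genes:
HMGB1 and HMGB2 shared run: AAATATGAAAAGGATATTGCTGCATATCG
HMGB3 shared at most 17 bases with HMGB1 and at most 17 bases with HMGB2. The length of the reads after trimming was not given in the sources used here.

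HMGB1 has many copies in the genome. Of the 50-base words in its transcript, 33.9% occur elsewhere in the genome, and 83.2% of those in its coding sequence do. GENCODE lists 48 pseudogenes named for HMGB1, and 23 of them had a read. Their reads came to 3.34% of the reads of HMGB1. HMGB1P5 and HMGB1P6, both processed pseudogenes, had log2 fold changes of 0.30 (DESeq2 adjusted p = 0.277) and 0.30 (adjusted p = 0.392), which lay near that of HMGB1 but did not pass the test. HMGB1P5 had 387, 364 and 394 normalized counts in EV replicates 1 to 3 and 421, 480 and 511 in HMGB2OE replicates 1 to 3, without overlap. With pseudogene reads added to HMGB1 its log2 fold change stayed at 0.35 (DESeq2 adjusted p = 0.0286).

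**Figure D2:**
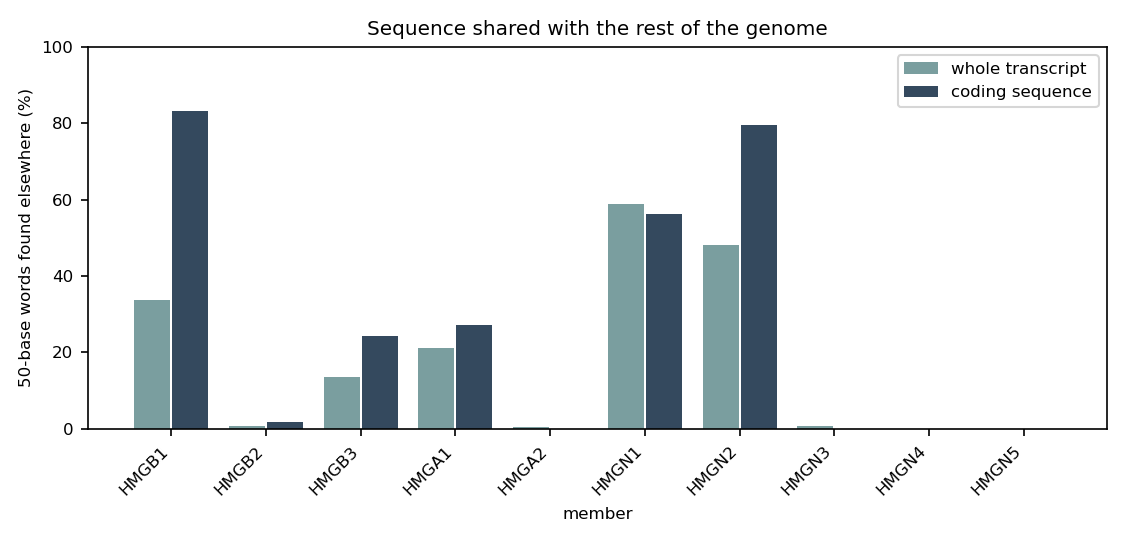
Percent of the 50-base words of each HMG gene's canonical transcript, and of its coding sequence, that occur elsewhere in the genome on either strand. HMGB1, HMGN2 and HMGN1 share most of their coding words, at 83.2%, 79.6% and 56.2%, while HMGB2, HMGA2, HMGN3, HMGN4 and HMGN5 stay under 2%.

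HMGB3 (ENSG00000029993, chromosome X, 150980509 to 150990771, plus strand), the HMGB protein best known from blood stem cells, did not pass the test. It had 2138, 2210 and 2173 normalized counts in EV libraries and 2309, 2202 and 2420 in HMGB2OE libraries. The groups overlapped, since HMGB2OE replicate 2 lay between EV libraries. Its log2 change was 0.09 (95% interval -0.10 to 0.28, DESeq2 adjusted p = 0.795), so changes above 1.21-fold lay outside the interval.

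The balance within the HMGB subfamily was read from normalized counts per kilobase of exon, which scale for gene length. With HMGB2OE the HMGB2 counts include vector reads, and the length of the vector transcript was not given in the sources used here. Reads that map to several places are missing, and 83.2% of the coding 50-base words of HMGB1 but 1.73% of those of HMGB2 occur elsewhere in the genome. HMGB2 made up 46.8%, 48.1% and 45.6% of the summed HMGB level in EV replicates 1 to 3 and 60.4%, 61.8% and 56.1% in HMGB2OE replicates 1 to 3. The share was higher in every HMGB2OE library, by 12.6 percentage points in the mean. The share of HMGB1 went from 44.9% ± 1.48 (SD, n = 3) to 35.2% ± 2.71, although its own level was higher with HMGB2OE. The level of HMGB1 and HMGB3 together, without HMGB2, was 3557 ± 179 with EV and 4412 ± 328 with HMGB2OE. With 3 libraries against 3 an exact permutation test cannot give a p under 0.1, and none is given for these sums. The share depends on the length used: by coding length HMGB2 made up 23.3% ± 0.979 with EV and 33.4% ± 2.75 with HMGB2OE.

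HMGA2 (ENSG00000149948, chromosome 12, 65824460 to 65966291, plus strand), an AT-hook protein of embryonic cells that many tumours express again, was the other member to rise. Its normalized counts were 6145, 7277 and 6149 in EV replicates 1 to 3 and 8229, 8443 and 8435 in HMGB2OE replicates 1 to 3. All HMGB2OE libraries lay above all EV libraries, and they differed little among themselves. The log2 change was 0.36 (SE 0.11, DESeq2 adjusted p = 0.0238). With edgeR the adjusted p was 0.0861. The call was also lost without EV replicate 1 (DESeq2 adjusted p = 0.378) and without HMGB2OE replicate 1 (0.249), 2 (0.259) or 3 (0.237), and it held without EV replicate 2 (0.0118) or 3 (0.00766).

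HMGA1 (ENSG00000137309, chromosome 6, 34236873 to 34246231, plus strand), the more abundant AT-hook protein, was the one member with a fold change below 0. It had 153494, 149838 and 118788 normalized counts in EV replicates 1 to 3 and 122600, 129203 and 107374 in HMGB2OE replicates 1 to 3. EV replicate 3 fell among the HMGB2OE libraries, so the groups overlapped. Compared by replicate number, HMGB2OE was lower by 0.32, 0.21 and 0.15 on the log2 scale. Whether replicate numbers pair the libraries is not given by the labels, so these values only describe the spread. Its log2 change was -0.23 (SE 0.13, DESeq2 adjusted p = 0.452).

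The ratio of the HMGA genes within a library does not depend on scaling between libraries. The log2 ratio of HMGA2 to HMGA1 reads was -4.64, -4.36 and -4.27 in EV replicates 1 to 3 and -3.90, -3.94 and -3.67 in HMGB2OE replicates 1 to 3. It was higher in every HMGB2OE library, by 0.59 in the mean, and the exact two-sided permutation p was 0.1, the smallest that 3 against 3 can give. HMGA1 remained far above HMGA2 in every library. The summed HMGA level per kilobase of exon was 60900 ± 8213 with EV and 52006 ± 4809 with HMGB2OE, and the groups overlapped.

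HMGA2 is a textbook target of the let-7 microRNAs, which bind its transcript beyond the stop codon, and LIN28 proteins block let-7 maturation. The sites are shown because they set HMGA2 apart from most of the family. In the canonical transcripts, bases complementary to the let-7 seed (CTACCTC) were found 4 times after the stop codon of HMGA2, 1 of them followed by an A, 1 time in HMGA1 and not in the other 8 members. The mature microRNA (RefSeq, seed in capitals) and the HMGA2 site followed by an A (seed match in capitals) read:
hsa-let-7a-5p: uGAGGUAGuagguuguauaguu
HMGA2 site: gccaacgttcgatttCTACCTCa
Mature microRNAs are not measured in poly(A) libraries. Of 7 genes of the let-7 axis, 6 received an adjusted p and none was called, with a median log2 fold change of 0.04. Over all genes tested 2.29% were called higher and 2.64% lower. IGF2BP3, which binds and stabilises transcripts including HMGA2, had normalized counts of 5335, 5858 and 6243 in EV libraries and 7147, 6905 and 7827 in HMGB2OE libraries. These did not overlap, and its log2 change was 0.33 (SE 0.11, DESeq2 adjusted p = 0.0546). IGF2BP2, its paralog, had a log2 fold change of -0.26 (adjusted p = 0.708) and LIN28B had 0.32 (adjusted p = 0.444).

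All 5 HMGN genes had a log2 fold change above 0. None of them was called, against 2.29% of all genes tested called higher and 2.64% lower. HMGN2 (ENSG00000198830, chromosome 1, 26472440 to 26476642, plus strand), which opens nucleosome arrays, came nearest. Its normalized counts were 19140, 20449 and 21709 in EV replicates 1 to 3 and 23443, 23570 and 26379 in HMGB2OE replicates 1 to 3. The groups did not overlap, and the log2 change was 0.26 (SE 0.10, DESeq2 adjusted p = 0.154). As for HMGB1, much of its sequence recurs in the genome, with 79.6% of its coding 50-base words found elsewhere. The reads of its 38 pseudogenes came to 3.36% of its own. HMGN2P5 and HMGN2P3 had log2 fold changes of 0.28 (DESeq2 adjusted p = 0.462) and 0.32 (adjusted p = 0.293).

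HMGN1 (ENSG00000205581, chromosome 21, 39342315 to 39349647, minus strand), the other ubiquitous nucleosome-binding member, had normalized counts of 9059, 9672 and 11111 in EV libraries and 10850, 10805 and 12525 in HMGB2OE libraries. Here EV replicate 3 exceeded HMGB2OE replicates 1 and 2, and the log2 change was 0.20 (SE 0.12, DESeq2 adjusted p = 0.507). HMGN4 (ENSG00000182952, chromosome 6, 26538366 to 26546933, plus strand), which derives from an HMGN2 copy, had 2451, 2456 and 3397 in EV libraries and 3010, 2837 and 3419 in HMGB2OE libraries. EV replicate 3 again stood with the HMGB2OE libraries, and the log2 change was 0.16 (DESeq2 adjusted p = 0.76). HMGN5 (ENSG00000198157, chromosome X, 81113699 to 81201913, minus strand), a longer member with an acidic tail, had 42.4, 64.7 and 30.05 normalized counts in EV libraries and 64.5, 55.2 and 36.0 in HMGB2OE libraries, and the groups overlapped. Its 95% interval ran from -0.56 to 0.93 on the log2 scale, so a change up to 1.90-fold lay within it.

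HMGN3 (ENSG00000118418, chromosome 6, 79201245 to 79234689, minus strand) had the largest HMGN fold change and depended most on how reads were counted. In the column that ignores strand it had 226, 238 and 291 normalized counts in EV libraries and 319, 277 and 413 in HMGB2OE libraries, with overlap (log2 fold change 0.42, DESeq2 adjusted p = 0.287). That column kept between 31.3% and 36.6% of the reads in the sum of the stranded columns. The antisense gene HMGN3-AS1 overlaps 144 of its exon bases, or 10.7%. In the sum of the stranded columns, divided by the same size factors, HMGN3 had 656, 697 and 794 in EV libraries and 907, 885 and 1161 in HMGB2OE libraries. There the groups did not overlap and the log2 change was 0.46 (DESeq2 adjusted p = 0.0568). Libraries were not stranded, so reads of HMGN3-AS1 are part of that sum.

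The third replicates of both groups departed from replicates 1 and 2 in the same direction for 7 of the 10 members. Among all genes tested this held for 72.5%, and among genes averaging at least 1000 normalized counts for 86.8%. For HMGA1 replicate 3 was lower than the mean of the others by 0.35 with EV and by 0.23 with HMGB2OE on the log2 scale, while for HMGN3 it was higher by 0.32 and 0.47. For HMGN4 it was higher by 0.47 and 0.23. Labels name no batch, and the source of this shift was not tested.

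A term for the third replicates, added to the fit, barely moved the fold changes and narrowed their errors. No label gives this term, and the shift it absorbs was seen in these same counts. Calls made with the term are therefore not separate support. With it 8.74% of 15690 genes were called higher and 8.68% lower. Of the 10 members, 6 were then higher and 1 lower. HMGB1 (DESeq2 adjusted p = 1.93e-08), HMGB2 (8.98e-52), HMGA2 (2.53e-05), HMGN2 (7.51e-05), HMGN1 (0.00685) and HMGN3 (0.0385) were higher, and HMGA1 was lower (0.000798). HMGN4 (0.104), HMGB3 (0.484) and HMGN5 (0.798) did not pass. Leaving out EV replicate 3 instead called the same 7 members in the same directions and HMGN4 (DESeq2 adjusted p = 0.0125), against 8.03% of genes higher and 9.1% lower.

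**Figure D3:**
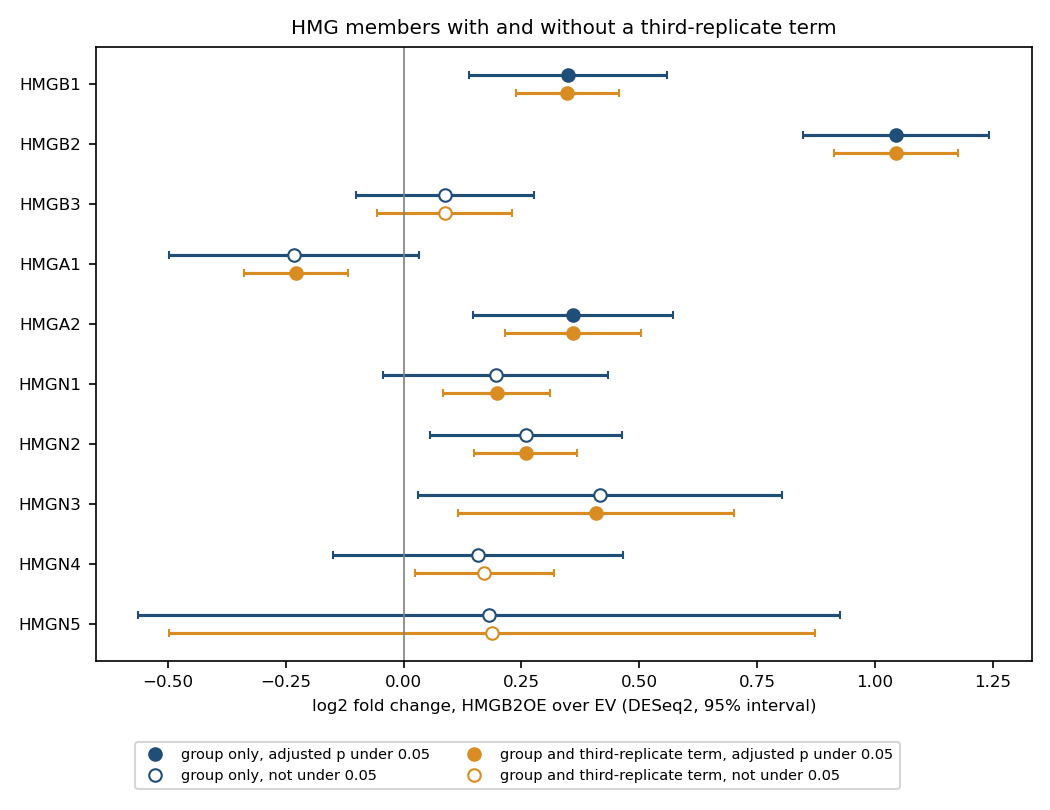
Log2 fold change of HMGB2OE over EV for each HMG gene with its 95% interval from DESeq2, without (blue) and with (orange) a term for the third replicates. Filled points have an adjusted p under 0.05; 3 are filled without the term and 7 with it, and each pair of points lies close together.

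**Figure D4:**
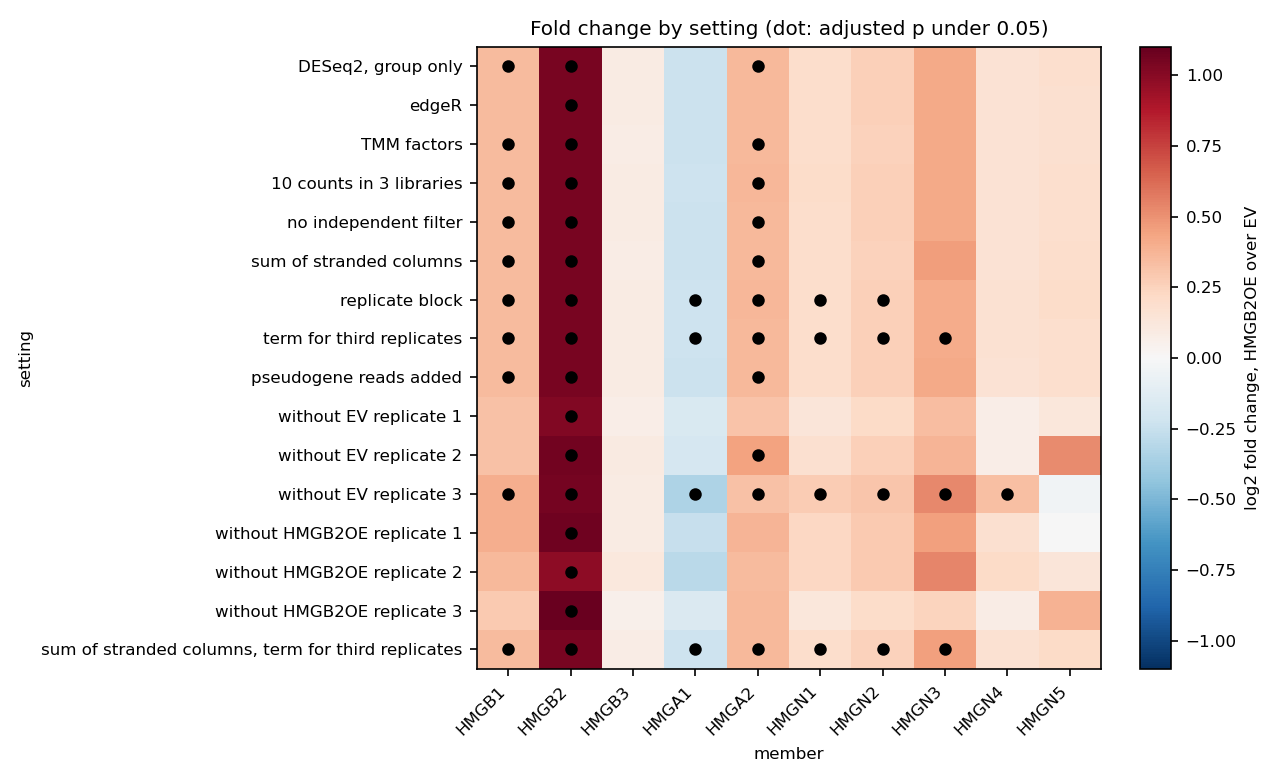
Log2 fold change of each HMG gene (columns) in each setting tried (rows), with a dot where the adjusted p was under 0.05. HMGB2 carries a dot in every row, HMGB3 and HMGN5 in none, and HMGA1 is blue, meaning lower with HMGB2OE, in every row.

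Levels of different members were compared as normalized counts per kilobase of canonical transcript. HMGA1 stood first with 73285 ± 9932 (SD, n = 3) in EV and 62357 ± 5831 in HMGB2OE libraries, and ranked 62 of 32537 genes. HMGN2 followed with 10532 ± 662 and 12610 ± 856. HMGN1 (7826 ± 829 and 8964 ± 771), HMGB2 (5214 ± 169 and 10768 ± 817) and HMGB1 (4234 ± 252 and 5390 ± 438) came next. HMGN1 and HMGB2 overlapped over the 6 libraries pooled, as did HMGB2 and HMGB1, but neither pair overlapped within a group. HMGB2 ran from 5031 to 5363 with EV, against 4075 to 4525 for HMGB1. With HMGB2OE it ran from 10138 to 11692, against 4991 to 5858 for HMGB1. By this length HMGB2 lay below HMGN1 in all EV libraries and above it in all HMGB2OE libraries. HMGA2 (1585 ± 158 and 2033 ± 29.5) and HMGN4 (1425 ± 280 and 1590 ± 154) overlapped with EV and were apart with HMGB2OE. HMGB3 (620 ± 10.3 and 659 ± 31.0), HMGN3 (263 ± 35.8 and 351 ± 72.8) and HMGN5 (21.8 ± 8.36 and 24.7 ± 6.92) were each apart from their neighbours. The order depends on the length, and the canonical length was chosen after seeing the data. Per kilobase of all exons HMGA1 was still highest and HMGN5 lowest, but HMGB2 was above HMGN1 in both groups (means of 3129 against 1973 with EV and 6463 against 2260 with HMGB2OE). By that length HMGN4 (1390 and 1551) lay above HMGA2 (433 and 555). HMGA2 overlapped HMGB3 (555 and 590) over the 6 libraries pooled, but lay below it without overlap within each group. Reads that map to several places are missing from these levels. Of the 50-base words of the transcript, 58.9% occur elsewhere in the genome for HMGN1, 48.1% for HMGN2 and 33.9% for HMGB1. For HMGA1 21.1% do, and for HMGB3 13.6%. The HMGB2 level with HMGB2OE also includes vector reads, for which the transcript length was not given.

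**Figure D5:**
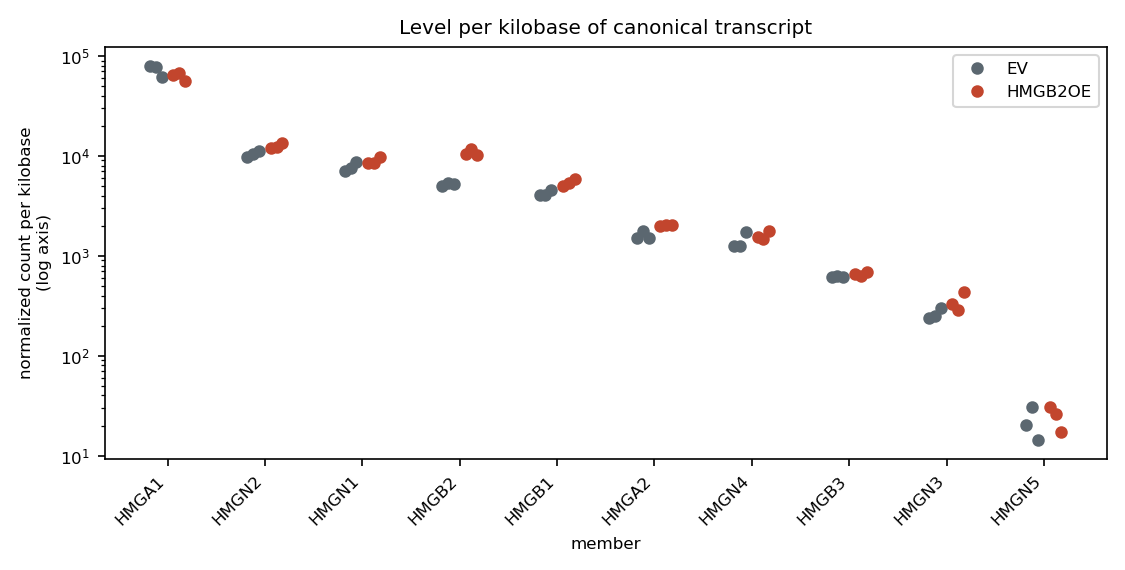
Normalized counts per kilobase of canonical transcript for each HMG gene, on a log axis, with 1 point per library. HMGA1 lies above all others and HMGN5 below all others, and HMGB2 crosses HMGN1 between EV and HMGB2OE, which it does not do per kilobase of all exons.

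Linker histones, the competitors of HMG proteins for chromatin, held more calls than any other list of related genes examined here. Of 7 genes 6 received an adjusted p. Of these 3 were higher and 1 was lower, against 2.29% of all genes tested called higher and 2.64% lower. The higher calls other than that of H1-2 rested on low counts and did not hold without HMGB2OE replicate 3. H1-10, a linker histone made outside S phase, had 10400, 9182 and 8606 normalized counts in EV libraries and 6252, 7038 and 5807 in HMGB2OE libraries, without overlap (log2 fold change -0.56, SE 0.12, DESeq2 adjusted p = 0.000347). H1-2, a replication-dependent linker histone, had 482, 552 and 373 in EV libraries and 742, 773 and 994 in HMGB2OE libraries, also without overlap (log2 fold change 0.83, SE 0.18, adjusted p = 0.00037). Both were called in every setting tried.

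H1-3 and H1-5, also replication-dependent, were higher on low counts. H1-3 had 7.07, 16.8 and 14.0 normalized counts in EV libraries and 43.6, 15.8 and 87.8 in HMGB2OE libraries (log2 fold change 1.95, DESeq2 adjusted p = 0.0316). H1-5 had 1.01, 2.66 and 2.15 in EV libraries and 6.36, 4.92 and 60.8 in HMGB2OE libraries (log2 fold change 3.61, adjusted p = 0.0208). Both were highest in HMGB2OE replicate 3, as was H1-2 (994). That library also had 10.6% of its reads mapped to several places, and a link to these values was not tested. Without that library the adjusted p of H1-3 was 0.639 and H1-5 received none. H1-3 was also not called with edgeR (adjusted p = 0.148), with no independent filter (0.0549), or without EV replicate 1 (0.266), EV replicate 2 (0.0553) or HMGB2OE replicate 1 (0.117). H1-5 was not called without EV replicate 1 (0.149) or 2 (0.0725), and it received no adjusted p with the replicate block or the third-replicate term. Transcripts of replication-dependent histones mostly lack a poly(A) tail, so poly(A) selection captures few of them.

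Other genes that share the HMG box or work with HMGB proteins were not called. Over all genes tested 2.29% were called higher and 2.64% lower, so lists this short can hold no call at that share. Of 22 further HMG-box genes 21 received an adjusted p and none passed, with 13 above 0 and a median log2 fold change of 0.07. SSRP1, a subunit of the histone chaperone FACT, had 22837 ± 1869 normalized counts (SD, n = 3) with EV and 20734 ± 1104 with HMGB2OE (log2 fold change -0.14, DESeq2 adjusted p = 0.642). NSD2, a histone methyltransferase with an HMG box, had a log2 fold change of -0.12 (adjusted p = 0.857), and HMGB4 was listed at 0. The SET complex, which contains HMGB2, had 4 of 5 genes with an adjusted p and none called. SET itself had 32776 ± 1856 with EV and 31848 ± 292 with HMGB2OE (log2 fold change -0.04, adjusted p = 0.917), ANP32A had a log2 fold change of 0.15 (adjusted p = 0.543), and TREX1 was listed at 0.

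HMGB2 and other HMG transcripts are high in dividing cells, so proliferation genes were set beside them. Against 2.29% of all genes tested called higher and 2.64% lower, 1 of 24 proliferation genes was called, KIF11, a mitotic kinesin. It had 4487, 4867 and 4448 normalized counts in EV libraries and 5547, 6221 and 6229 in HMGB2OE libraries, without overlap (log2 fold change 0.38, SE 0.10, DESeq2 adjusted p = 0.00711). With edgeR its adjusted p was 0.0597, and it was also not called without EV replicate 1 (0.206) or without HMGB2OE replicate 1 (0.0592), 2 (0.221) or 3 (0.18). In the list 18 of 24 genes lay above 0, with a median log2 fold change of 0.16. Their part in the differences of the HMG genes was not tested.

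Promoter sequence was available for 8 of the 10 members as 12 windows of 250 bases before annotated starts (RefSeq, GRCh38.p14). HMGB2 and HMGA2 had no window, so HMGB1 is the only called member covered. CCAAT, searched on both strands, occurred in 7 of 12 windows and in 32% of 35116 windows of this length before all genes. GGGCGG, also on both strands, occurred in 8 of 12 and in 42.6% of all windows, and TGANTCA, which reads alike on both strands, in 0 of 12 and in 6.57%. HMGB1 and HMGN2, whose groups did not overlap, are shown with one window each, which for HMGB1 is the one of its windows with the most CCAAT motifs. This motif is in capitals:
HMGB1, chr13:30465937-30466186, minus strand: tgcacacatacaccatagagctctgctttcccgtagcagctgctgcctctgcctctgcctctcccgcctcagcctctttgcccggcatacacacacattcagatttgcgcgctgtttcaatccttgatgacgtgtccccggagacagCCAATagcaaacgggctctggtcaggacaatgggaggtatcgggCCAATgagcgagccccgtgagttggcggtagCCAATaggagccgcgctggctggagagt
HMGN2, chr1:26472190-26472439, plus strand: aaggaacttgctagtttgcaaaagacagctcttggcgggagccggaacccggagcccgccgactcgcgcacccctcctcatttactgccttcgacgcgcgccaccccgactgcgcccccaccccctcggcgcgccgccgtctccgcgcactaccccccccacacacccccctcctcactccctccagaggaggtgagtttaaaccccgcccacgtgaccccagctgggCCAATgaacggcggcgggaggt
The HMGB1 window shown held CCAAT 3 times and the HMGN2 window 1 time. The 2 other windows of HMGB1 held it 1 and 0 times. For GGGCGG the HMGB1 window shown had 0 matches and the others 9 and 2, while the HMGN2 window had 1. In the pair of HMGA1 windows the former motif was found 0 and 1 times and the latter 5 and 0 times, so counts differed between the starts of a gene. GC content of the windows shown was 58.4% and 68.4%. These are matches of letters in a window and not binding sites.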

How the data were processed

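RNA of 6 A375 libraries (3 EV, 3 HMGB2OE, by genotype label) was examined. Per the labels and the study's methods, the authors demultiplexed reads with bcl2fastq 2.20, checked them with FastQC, trimmed them with Trimmomatic and mapped them to GRCh38 with STAR; the STAR version and annotation release were not given in the sources used here. The authors deposited raw counts per gene as whole numbers, and the 4 summary lines of each table entered neither library sizes nor tests. The column that ignores strand was used, and the sum of both stranded columns as an alternative. Depth is 45925053 to 56755212 gene reads per library.

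Symbols came from GENCODE 44 (57532 of 58302 IDs matched; unmatched IDs held 0.0575% of counts). DESeq2 1.42.0 in R 4.3.3 was run on all genes with a Wald test on the group, default parameters and an independent filter at 0.1, after the study's methods. Intervals are Wald intervals at 95%. Levels per kilobase used the union of exons, or the canonical or coding length where stated. Counting and word searches ran in Python 3.11.15. Alternatives were edgeR 4.0.16, TMM factors, a filter of 10 counts in 3 libraries, no independent filter, shrinkage, pseudogene reads added, the stranded sum, a replicate block, a third-replicate term and leaving out each library. The fits were tested on simulated data. The stranded sum with the third-replicate term, and the canonical length, were chosen after seeing the data.

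Named were all 10 members, every called gene of the related lists, the 2 with the highest mean normalized count where none was called, pseudogenes with 1000 or more reads, and the 5 genes most correlated with HMGB2 among those with a mean of 100 or more (log2 of normalized count plus 1). LIN28B, HMGB4, TREX1 and the other genes named beyond this rule were chosen after their values were seen. The members and lists were chosen with earlier results of these data known.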

Additional observations from a re-analysis of the deposited data

How the results depend on the processing

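HMGB2 was called in each of the 16 alternatives, at a log2 fold change between 0.92 (with shrinkage) and 1.09. The count of 3 HMG members higher and 0 lower became 1 and 0 with edgeR, 5 and 1 with the replicate block, 6 and 1 with the third-replicate term, with or without the stranded sum, and 1 to 7 higher and 0 to 1 lower when 1 library was left out. It was the same with TMM factors, the filter, no independent filter, the stranded sum and pseudogene reads added. Over all genes, 432 higher and 498 lower became 215 and 255 with edgeR, 888 and 937 with the block, 1372 and 1362 with the third-replicate term, 1512 and 1545 with that term on the stranded sum, and 155 to 1332 higher and 208 to 1509 lower when 1 library was left out, the largest counts being those without EV replicate 3. Related lists, with 4 higher and 1 lower, went to 1 higher with edgeR, 13 and 3 with the block, 17 and 5 with the third-replicate term, 20 and 6 with that term on the stranded sum, and 1 to 16 higher and 1 to 7 lower when 1 library was left out. The cause of these shifts was not tested. Labels do not say whether replicate numbers pair the libraries. Over 16692 genes the deviations of same-numbered libraries correlated at 0.09, 0.14 and 0.35. EV replicates 2 and 3 correlated best with the HMGB2OE library of their number, but EV replicate 1 correlated best with HMGB2OE replicate 2 (0.21). The block also called HMGN1, HMGN2 and HMGA1. When 1 library was left out, 3 uncalled genes among the members and the genes named by rule from the related lists changed sign: log2 fold changes ran from -0.042 to 0.52 for HMGN5 (below 0 without EV replicate 3 or HMGB2OE replicate 1), from -0.29 to 0.00475 for NSD2 (above 0 without EV replicate 2) and from -0.067 to 0.073 for TLR4 (above 0 without EV replicate 3 or HMGB2OE replicate 1 or 2). The HMGB2 share of the HMGB level and the summed levels kept their direction in the alternatives run for them (the stranded sum, coding and canonical length, pseudogene reads added and leaving out each library). No read length, position or mapping quality was analysed, so the source of reads in shared sequence was not resolved.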

Other observations

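Receptors and partners of extracellular HMGB1 were mostly near the floor in these cells. Of 8 genes, TLR9, HAVCR2, CXCL12 and CXCR4 had mean normalized counts under 10, and 5 genes received an adjusted p with none called. Over all genes tested 2.29% were called higher and 2.64% lower. TLR4, a receptor of innate immunity, was the exception in level, with 5321 ± 508 normalized counts (SD, n = 3) with EV and 5288 ± 386 with HMGB2OE (log2 fold change -0.01, DESeq2 adjusted p = 0.99). AGER, which encodes the HMGB1 receptor RAGE, had 25.5 ± 8.04 with EV and 32.2 ± 4.52 with HMGB2OE (log2 fold change 0.34, adjusted p = 0.817).

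Over the 6 libraries, the 5 genes whose log2 normalized counts followed HMGB2 most closely among 12133 genes were IGFBP5, ANGPTL4, NDRG1, MLEC and TCN1, with Pearson r from 0.993 to 0.997. IGFBP5, a secreted binding protein of insulin-like growth factors, had 1282, 1280 and 1226 normalized counts in EV libraries and 4010, 4399 and 3802 in HMGB2OE libraries. Of the HMG genes, HMGA2 ranked 326 (r = 0.92), HMGB1 540 (r = 0.88) and HMGN2 772 (r = 0.84). The libraries form 2 groups that differ in HMGB2, so any gene that differs between groups correlates with it, and r is a description only.

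Within libraries the log2 ratio of HMGB1 to HMGB3 reads was 3.38, 3.34 and 3.51 in EV replicates 1 to 3 and 3.56, 3.72 and 3.72 in HMGB2OE replicates 1 to 3, higher in every HMGB2OE library by 0.26 in the mean. The log2 ratio of HMGN2 to HMGN4 reads overlapped between groups, at 2.90 ± 0.20 (SD, n = 3) with EV and 2.99 ± 0.06 with HMGB2OE.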
